A study of Mus musculus with 5 samples.

Results

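The matrix metalloproteinases and their Timp inhibitors were followed as 9 genes, matched by symbol among the 27998 genes of single-cell libraries from mouse mammary tissue. They comprise 6 proteinases, Mmp2, Mmp3, Mmp9, Mmp10, Mmp13 and Mmp14, and 3 inhibitors, Timp1, Timp2 and Timp3, and each symbol matched 1 gene. Libraries came from 1 BPK tumor that formed after 24 intraductal injections of 4NQO, from BPK glands after 12 injections of 4NQO (2 libraries), from PK glands after 12 injections of 4NQO (1 library) and from BPK glands after 12 injections of PBS/PEG vehicle (1 library). BPK mice were Brca1 wt/flox, Trp53 flox/flox, Krt14cre and PK mice Brca1 wt/wt, Trp53 flox/flox, Krt14cre, so every group carried the floxed Trp53 alleles and a Cre driven by the Krt14 promoter, which is active in basal and squamous epithelium. 4NQO is 4-nitroquinoline 1-oxide, a DNA-damaging carcinogen. The labels give neither age nor the number of animals behind a library, and they do not say that the paired BPK 4NQO libraries came from separate animals, so p-values measure the spread between these libraries, which may be technical.

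Matrix metalloproteinases are zinc-dependent enzymes, made as inactive precursors, that cut collagens, proteoglycans and signalling proteins outside the cell. Mmp2 and Mmp9 are gelatinases, Mmp3 and Mmp10 stromelysins, Mmp13 a collagenase and Mmp14 a membrane-anchored enzyme that activates the Mmp2 precursor. Timp proteins bind the active site of these enzymes and block it. Timp2 also takes part in Mmp2 activation on Mmp14, and Timp3 is held in the matrix. In the mammary gland the family takes part in duct branching and in the removal of milk-producing tissue after weaning, and in tumors both epithelium and stroma can be its source.

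Cells were assigned to classes from marker genes, and 26381 of 31434 kept cells (83.9%) received one. Basal and squamous keratinocyte marker lists were joined into a class called Krt5/Krt14 epithelium, because tumor epithelium scored on both. The keratinocyte list scored higher than the basal list in 27.41% of these cells in the BPK tumor, against 1.18% and 3.0% in BPK 4NQO, 1.02% in PK 4NQO and 0.71% in BPK vehicle. Median UMIs (unique molecular identifiers, 1 for each captured transcript) per kept cell were 19554 in the tumor and 2548 to 4516 in the gland libraries. The mitochondrial limit removed 12.92% of tumor barcodes and at most 2.15% of those of any gland library. The second BPK 4NQO library stood apart from the others, sharing at most 2 cell barcodes with any of them where the other pairs shared 26 to 107. Levels are given in CPM, the counts of a gene scaled to 1e6 UMIs of a class summed within a library, and rest on 1 sum each.

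Mmp10, Mmp13 and Mmp3, which moved together in tumor epithelium, lie on chromosome 9 of mm10 within the metalloproteinase gene cluster. Mmp10 spans 7502352 to 7510240, Mmp13 spans 7272514 to 7283331 and Mmp3 spans 7445822 to 7455975, all on the plus strand. The 110 bases before the RefSeq start of each (GRCm38.p6) are shown. They share letters that were not found in the promoters of Mmp14, Timp1, Timp2 and Timp3. Timp1, without these letters, was also called higher in tumor epithelium. Mmp2 and Mmp9 had no promoter entry and were not examined, although Mmp9 also rose in tumor epithelium. TGAGTCA or its reverse complement TGACTCA, the AP-1 motif, and TATAAA are in capitals.
Mmp10 (chr9:7502232-7502341, plus strand): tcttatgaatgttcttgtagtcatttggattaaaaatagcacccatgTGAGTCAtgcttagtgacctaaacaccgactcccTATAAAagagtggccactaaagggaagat
Mmp13 (chr9:7272404-7272513, plus strand): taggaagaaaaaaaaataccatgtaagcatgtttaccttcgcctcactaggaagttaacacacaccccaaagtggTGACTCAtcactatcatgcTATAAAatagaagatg
Mmp3 (chr9:7445712-7445821, plus strand): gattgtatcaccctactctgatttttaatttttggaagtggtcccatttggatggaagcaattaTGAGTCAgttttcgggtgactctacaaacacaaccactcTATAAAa
The AP-1 letters began 63 bases before the start in Mmp10, 35 in Mmp13 and 46 in Mmp3, and TATAAA followed them in each. Of the 7 members with a promoter entry, these 3 held both motifs in the window from 250 bases before to 50 after the start. Mmp14, Timp1, Timp2 and Timp3 held neither. TATAAA was sought in the members on the strand of the gene only, while the AP-1 letters with their reverse complement cover both strands. Among 32851 RefSeq promoters of that length 5.2% held the AP-1 letters and 8.32% held TATAAA on the strand of the gene. A match describes these letters and does not show that a factor binds there.

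Mmp10 was scarce in the gland libraries, with no UMI in any kept cell of PK 4NQO or BPK vehicle. Gland macrophages had 14.5 to 50.4 CPM of Mmp9 and 13.1 to 44.2 CPM of Mmp13. Mmp3 belonged to fibroblasts, which held 97.5% and 97.2% of its UMIs in BPK 4NQO, 95.2% in PK 4NQO and 96.7% in BPK vehicle. In the tumor that share was 45.9%, and Krt5/Krt14 epithelium held 52.0%. The epithelium likewise held 81.7% of the tumor's Mmp10, 74.9% of its Mmp13 and 83.3% of its Mmp9 UMIs. It made up 56.18% of the tumor's kept cells, had the deepest of them and held 76.9% of all their UMIs. Its shares of these genes thus reflect numbers and RNA content as well as level. By level in CPM, tumor fibroblasts had more Mmp3, Mmp9, Mmp10 and Mmp13 than this epithelium, and tumor macrophages had more Mmp13.

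**Figure D1:**
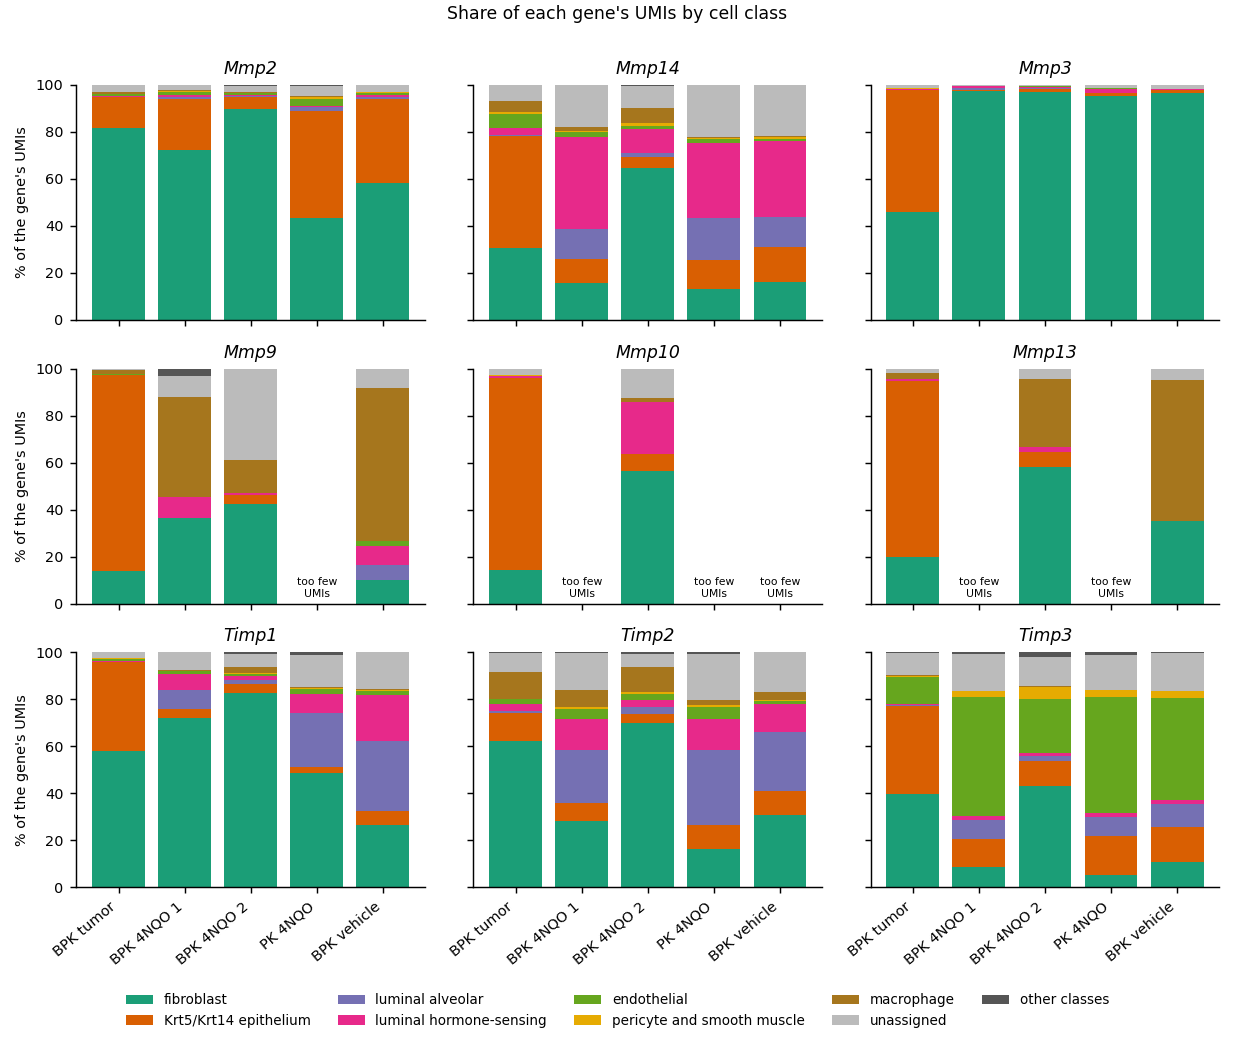
Bars show, for each gene and library, the percentage of the gene's UMIs found in each cell class (y axis), with libraries along the x axis and BPK 4NQO 1 and 2 as replicates. Libraries with fewer than 20 UMIs of a gene are left blank. Fibroblasts held nearly all Mmp3 in the 4 gland libraries. In the tumor, Krt5/Krt14 epithelium held most Mmp9, Mmp10 and Mmp13, and 76.9% of the UMIs of all genes.

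The other members were present in the glands, each with its own leading classes. By level, Mmp2 was highest in fibroblasts in every library, among classes of at least 30 cells. Fibroblasts had 557 CPM in the tumor, 934 and 1178 CPM in BPK 4NQO, 555 CPM in PK 4NQO and 727 CPM in BPK vehicle. Of the other main classes in the glands, Krt5/Krt14 epithelium had 98.3 to 146 CPM, and luminal cells stayed below 10 CPM. By share of Mmp2 UMIs in PK 4NQO, Krt5/Krt14 epithelium held 45.6% and fibroblasts 43.4%. Of the 7 main classes of the glands, endothelium and pericytes and smooth muscle had the most Timp3. Gland endothelium had 1255 and 1307 CPM of Timp3 in BPK 4NQO, 1268 CPM in PK 4NQO and 1502 CPM in BPK vehicle. Gland pericytes and smooth muscle had 1234, 1088, 1096 and 1603 CPM in the same order of libraries, and the ranges of these vessel classes overlapped. Schwann cells had 1595 CPM in the second BPK 4NQO library (60 cells) and 776 CPM in PK 4NQO (39 cells). In the tumor, fibroblasts had 392 CPM of Timp3 and endothelium 254 CPM.

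Timp2 was high in fibroblasts and macrophages. Its fibroblast level was 862 CPM in the tumor, 1409 and 2277 CPM in BPK 4NQO, 1001 CPM in PK 4NQO and 1486 CPM in BPK vehicle. Macrophages had 598 CPM in the tumor, 1114 and 568 CPM in BPK 4NQO, 591 CPM in PK 4NQO and 473 CPM in BPK vehicle. Every library thus had more Timp2 in fibroblasts than in macrophages. Mmp14 was read in all 7 main classes of the glands, from 17.0 CPM in endothelium of BPK vehicle to 860 CPM in fibroblasts of the second BPK 4NQO library. Luminal hormone-sensing cells, which carry estrogen and prolactin receptors, had 92.8 and 152 CPM of it in BPK 4NQO, 93.0 CPM in PK 4NQO and 95.1 CPM in BPK vehicle. Luminal alveolar cells, the milk-producing lineage, had less in each library, at 35.5 and 49.2, 30.5 and 24.97 CPM.

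Timp1 and Timp3 each lie inside another gene on the opposite strand, Timp1 within Syn1 on chromosome X and Timp3 within Syn3 on chromosome 10. Syn1 stayed at or below 6.66 CPM in fibroblasts and every other class of any library. Syn3 reached 18.6 CPM in the epithelium, 38.6 CPM in endothelium and 112 CPM in Schwann cells of the second BPK 4NQO library. The part of partner reads in the counts of Timp1 and Timp3 was not tested.

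**Figure D2:**
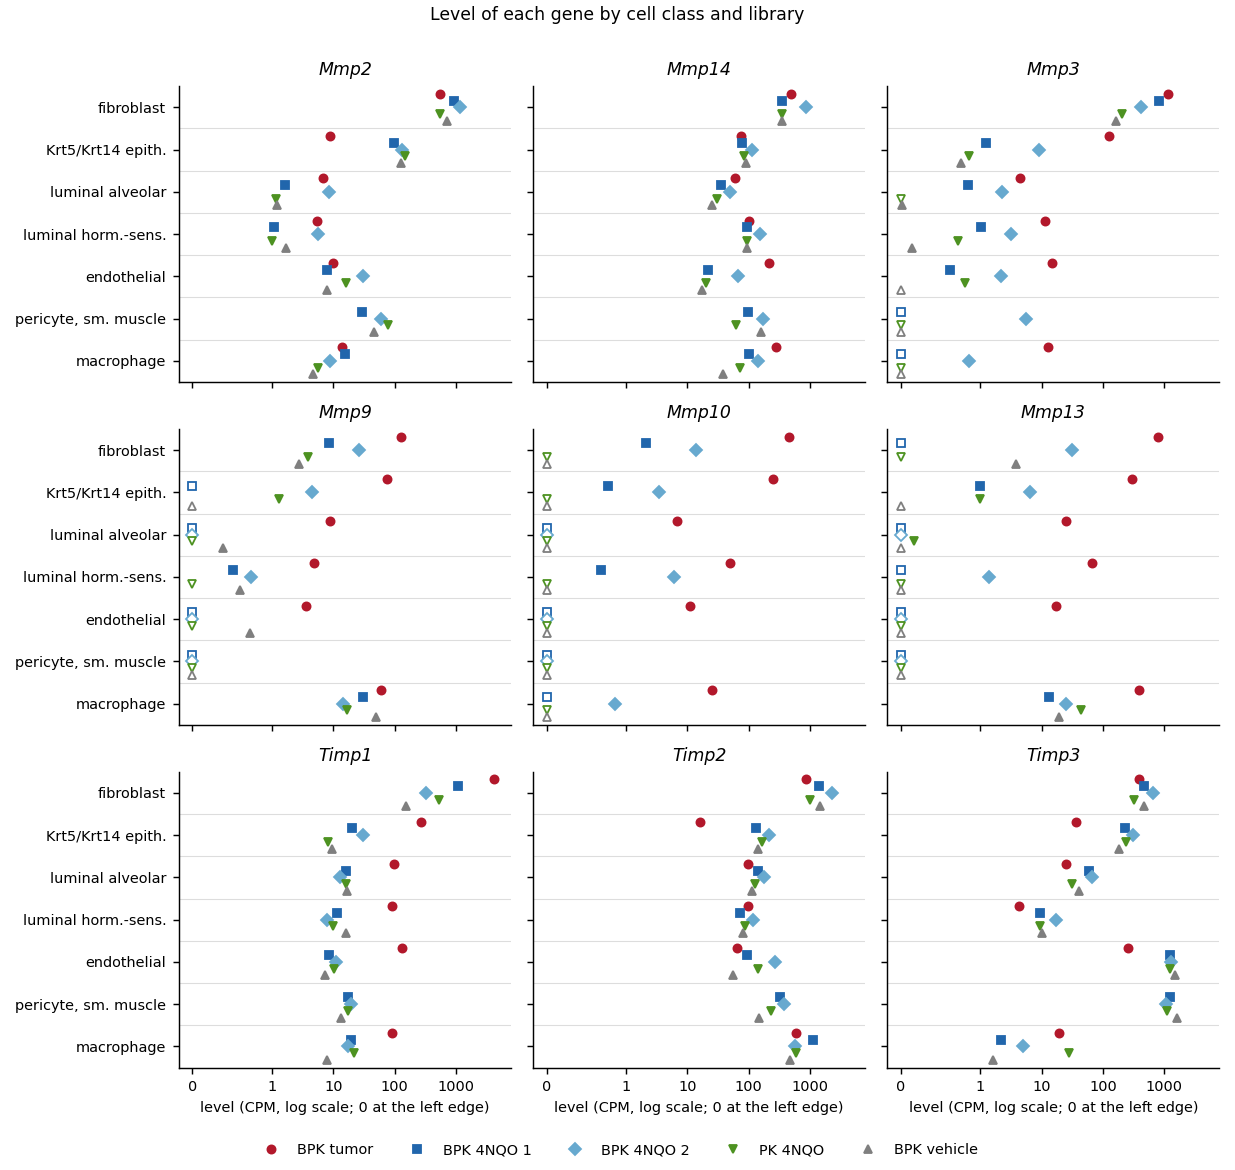
Each panel gives 1 gene's level (x axis, CPM on a log scale, with open symbols at the left edge for 0) in 7 cell classes (y axis), 1 symbol for each library with at least 30 cells of the class. Tumor symbols stand apart to the right for Mmp9, Mmp10, Mmp13 and Timp1 in most classes and to the left for Mmp2, Timp2 and Timp3 in Krt5/Krt14 epithelium.

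The tumor was compared with the glands of the same genotype and carcinogen to see which members differ once a tumor has formed. The number of injections (24 against 12) differed with it, so tumor formation and exposure cannot be told apart. Members gave 48 tests within a class, over 6 classes. By edgeR 18 passed at an adjusted p under 0.05 (16 higher in the tumor, 2 lower). Over all genes and the same classes 4.36% of edgeR tests passed. DESeq2 called 11 member tests, and 3 of these were not among the 18. Those were Timp3 in Krt5/Krt14 epithelium and in endothelium, and Mmp13 in macrophages. No DESeq2 share over all genes is given. The main tests were edgeR's quasi-likelihood F test with Benjamini-Hochberg adjustment over all genes of a class. They rest on 1 tumor library and 1 residual degree of freedom.

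Tumor epithelium had far more of the inducible enzymes than gland epithelium. Mmp10 stood at 250 CPM in Krt5/Krt14 epithelium of the tumor, against 0.499 and 3.41 CPM in BPK 4NQO, 0 CPM in PK 4NQO and 0 CPM in BPK vehicle. Mmp13 stood at 298 CPM in the tumor, against 0.998 and 6.44 CPM in BPK 4NQO, 0.988 CPM in PK 4NQO and 0 CPM in BPK vehicle. The tumor value lay far outside the range of the gland libraries for both. Mmp10 was higher in the tumor by 7.64 ± 0.88 on the log2 scale (fold change over BPK 4NQO, ± SE, adjusted p = 6.51e-15 by edgeR). Mmp13 was higher by 6.95 ± 0.86 (adjusted p = 5.03e-13 by edgeR).

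Mmp3 followed at 128 CPM in tumor epithelium, against 1.25 and 9.10 CPM in BPK 4NQO, 0.659 CPM in PK 4NQO and 0.477 CPM in BPK vehicle. Its log2 fold change was 5.26 ± 0.73 (adjusted p = 2.15e-10 by edgeR). Mmp9 had 74.0 CPM in the tumor, 0 and 4.55 CPM in BPK 4NQO, 1.32 CPM in PK 4NQO and 0 CPM in BPK vehicle, a log2 fold change of 5.74 ± 0.75 (adjusted p = 1.45e-11 by edgeR). In neither gene did the groups overlap. The size of these folds depended on the BPK 4NQO library they were set against. Without the first BPK 4NQO library the log2 fold changes of Mmp3, Mmp9, Mmp10 and Mmp13 were 4.47, 4.68, 6.85 and 6.19, and without the second they were 6.99, 13.12, 9.27 and 8.53. The 13.12 sets Mmp9 against a library with no count of it and has no meaning as a size. DESeq2 called Mmp3 and Mmp13 in this class, and gave adjusted p = 0.595 for Mmp9 and adjusted p = 0.125 for Mmp10.

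Among the inhibitors, Timp1 rose in tumor epithelium while Timp2 fell. Timp1 had 265 CPM in the tumor, against 19.96 and 29.9 CPM in BPK 4NQO, 8.23 CPM in PK 4NQO and 9.54 CPM in BPK vehicle. The tumor lay above all gland libraries, and the log2 fold change was 3.92 ± 0.75 (adjusted p = 7.99e-06 by edgeR). Timp2 had 16.04 CPM in the tumor, against 130 and 218 CPM in BPK 4NQO, 164 CPM in PK 4NQO and 140 CPM in BPK vehicle. It was lower by a log2 fold change of -2.92 ± 0.94 (adjusted p = 0.017 by edgeR), with no overlap of groups. Timp3 had 36.3 CPM in the tumor, against 230 and 306 CPM in BPK 4NQO, 243 CPM in PK 4NQO and 185 CPM in BPK vehicle. Its log2 fold change of -2.39 ± 0.96 did not pass the edgeR test (adjusted p = 0.0741), though DESeq2 called it. Of the tumor's epithelial Timp3 UMIs, 89.0% sat in 126 of 1255 cells, with up to 347 in a cell.

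Mmp2, which in the glands these cells share with fibroblasts, also fell in tumor epithelium. It had 8.86 CPM in the tumor, against 98.3 and 130 CPM in BPK 4NQO, 146 CPM in PK 4NQO and 129 CPM in BPK vehicle. The log2 fold change was -3.19 ± 0.92 (adjusted p = 0.00641 by edgeR). Mmp14 had 73.6 CPM in the tumor, against 76.8 and 115 CPM in BPK 4NQO, and its log2 fold change was 0.13 ± 0.76 (adjusted p = 0.936 by edgeR). Its tumor level was below both BPK 4NQO libraries, and the fitted fold change, made after TMM scaling of the libraries, has the opposite sign. In this class 7 of the 9 members passed the test where 15.5% of its 12420 genes did, 5.97% higher and 9.53% lower.

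The mixture of basal and keratinocyte-like cells in this class changed with the tumor. Among cells whose basal list scored higher, leaving 911 tumor cells, the log2 fold changes were 5.34 for Mmp3, 6.05 for Mmp9, 7.85 for Mmp10, 7.49 for Mmp13 and 4.16 for Timp1. In the same cells they were -3.12 for Mmp2 and -3.04 for Timp2, close to the values over the whole class. All 8 fibroblast markers had UMIs in the epithelium of each library, summing to 96.8 CPM in the tumor, 169 and 282 CPM in BPK 4NQO, 158 CPM in PK 4NQO and 179 CPM in BPK vehicle. The 9 pericyte and smooth muscle markers summed to 10.5 CPM in the tumor, 523 and 1525 CPM in BPK 4NQO, 728 CPM in PK 4NQO and 579 CPM in BPK vehicle, with Abcc9 at 0 in BPK vehicle. Both lists were lower in the tumor, where Mmp2, Timp2 and Timp3 had lower levels too, and their part in these differences was not tested.

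**Figure D3:**
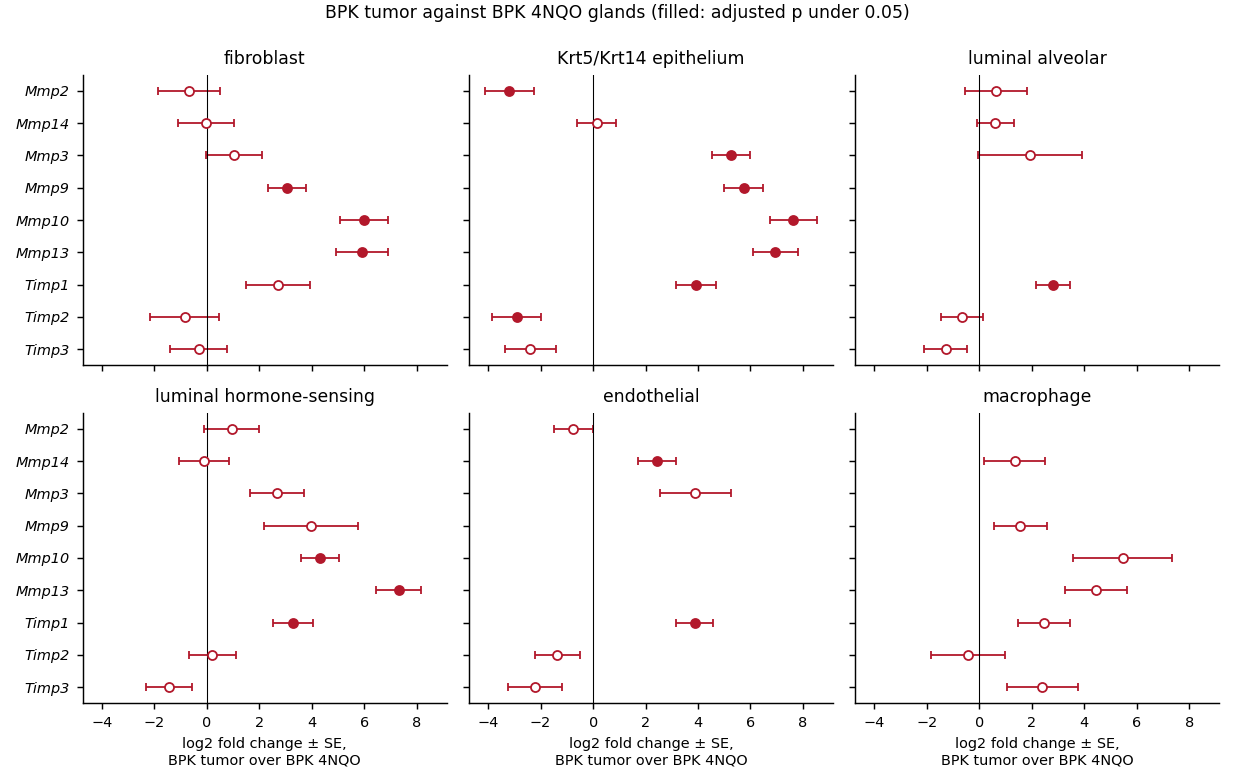
Points are log2 fold changes of the BPK tumor (1 library) over BPK 4NQO (2 libraries) with their standard errors (x axis) for each member (y axis), 1 panel for each class, filled where the edgeR adjusted p was under 0.05. Genes not tested, and endothelial Mmp10 and Mmp13, which had no count in BPK 4NQO, are left out. Krt5/Krt14 epithelium shows 5 filled points to the right of 0 and 2 to the left.

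Tumor cells were far deeper than gland cells, so shares of cells with a UMI were compared after each cell was thinned to 1000 UMIs. This left out 22 shallower tumor cells and 24 to 76 cells of each gland library in the epithelium. Mmp10 was then found in 15.6% of tumor cells of Krt5/Krt14 epithelium, with an exact 95% interval of 13.6% to 17.7%, against 67.6% before thinning. Its thinned share in the glands was 0% and 0.468% in BPK 4NQO, 0% in PK 4NQO and 0% in BPK vehicle. Mmp13 was found in 15.7% of tumor cells after thinning, and Mmp3 in 7.79%. At least 1 of Mmp3, Mmp9, Mmp10 and Mmp13 was present in 86.6% of tumor epithelial cells at full depth and in 32.9% after thinning. At least 2 of them were present in 9.08% after thinning, against 0% and 0.234% in BPK 4NQO, 0% in PK 4NQO and 0% in BPK vehicle. Thinned endothelial cells of the tumor, taken as a background, held Mmp10 in 0.649%, Mmp13 in 1.30% and Mmp3 in 1.95%. Intervals cover counting error only, and each group but BPK 4NQO holds 1 library, so shares carry no test between groups.

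**Figure D4:**
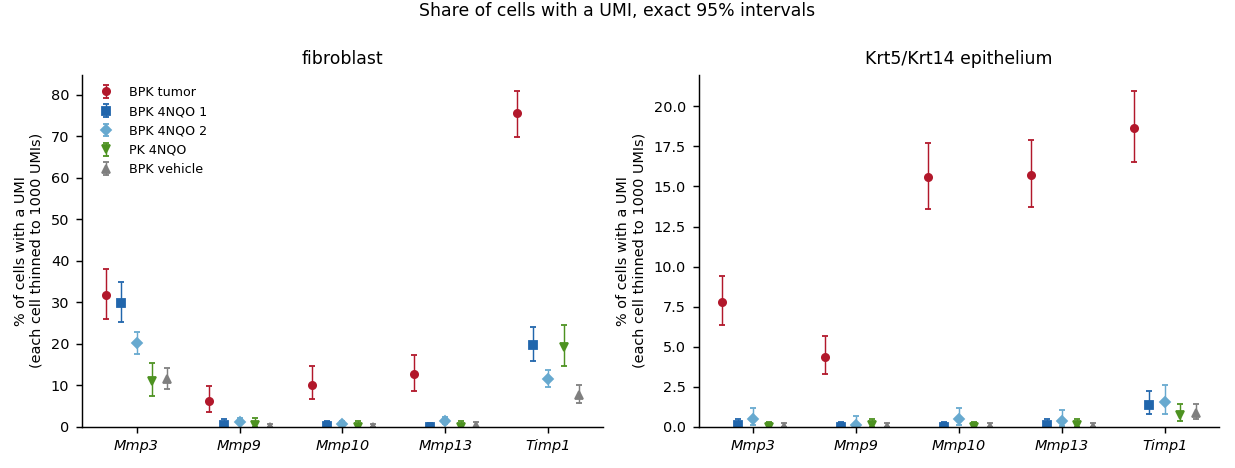
Points give the percentage of cells with at least 1 UMI of each gene (y axis) after thinning each cell to 1000 UMIs, with exact Clopper-Pearson 95% intervals, in fibroblasts (left) and Krt5/Krt14 epithelium (right) of each library. Timp1 in tumor fibroblasts reached 75.6%, and the tumor intervals in the epithelium lie above those of all gland libraries for the 5 genes shown.

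Fibroblasts of the tumor were the richest class in Timp1. They held 4211 CPM, against 1089 and 328 CPM in BPK 4NQO, 540 CPM in PK 4NQO and 156 CPM in BPK vehicle. After thinning, Timp1 was found in 75.6% of tumor fibroblasts, against 19.7% and 11.6% in BPK 4NQO, 19.3% in PK 4NQO and 7.70% in BPK vehicle. The tumor lay above every gland library, yet the gland libraries spread widely and the log2 fold change of 2.71 ± 1.21 did not pass (adjusted p = 0.29 by edgeR). T cells, which should lack the gene, had Timp1 in 1.12% and 0.699% of thinned BPK 4NQO cells and in none of those of PK 4NQO. Luminal, endothelial and macrophage cells of the tumor itself had it in 11.8% to 13.5% after thinning. Mmp3 in fibroblasts had 1165 CPM in the tumor, 838 and 425 CPM in BPK 4NQO, 207 CPM in PK 4NQO and 161 CPM in BPK vehicle. Its log2 fold change was 1.05 ± 1.07 (adjusted p = 0.76 by edgeR).

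The calls in fibroblasts were 3 other enzymes. Mmp13 had 810 CPM in the tumor, against 0 and 31.5 CPM in BPK 4NQO, 0 CPM in PK 4NQO and 3.85 CPM in BPK vehicle. Mmp10 had 453 CPM in the tumor, against 2.13 and 13.8 CPM in BPK 4NQO, 0 CPM in PK 4NQO and 0 CPM in BPK vehicle. Mmp9 had 126 CPM in the tumor, against 8.52 and 26.7 CPM in BPK 4NQO, 3.93 CPM in PK 4NQO and 2.75 CPM in BPK vehicle. No gland library came near the tumor in any of the 3. Their log2 fold changes were 5.92 ± 0.98 for Mmp13, 6.0 ± 0.91 for Mmp10 and 3.06 ± 0.73 for Mmp9 (adjusted p = 9.99e-07, 4.99e-08 and 0.00303 by edgeR).

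DESeq2 called none of these, with adjusted p = 0.969 for Mmp13, 0.645 for Mmp10 and 0.0642 for Mmp9. Without the first BPK 4NQO library the log2 fold changes were 5.05, 5.41 and 2.61, and without the second, where Mmp13 then met a library with no count, they were 13.74, 7.77 and 3.96. Of 10877 genes tested in fibroblasts 2.34% were called. Mmp2, Mmp14, Timp2 and Timp3 were not called in fibroblasts, with log2 fold changes from -0.85 to -0.03 and standard errors of 1.07 to 1.30.

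A few fibroblasts of the tumor held most UMIs of Mmp3, Mmp9, Mmp10 and Mmp13. The 25 of 248 tumor fibroblasts with the most Mmp13 held 96.0% of its UMIs. The 25 richest in each other gene held 93.1% of Mmp10, 89.4% of Mmp9, 75.6% of Mmp3 and 48.9% of Timp1 UMIs. For Mmp2, Mmp14, Timp2 and Timp3 it was 33.8%, 38.5%, 40.5% and 62.4%. Mmp3 and Timp1 were concentrated in gland fibroblasts too. The richest 42 of 412 and 108 of 1078 cells in BPK 4NQO held 72.3% and 73.6% of Mmp3 UMIs. In PK 4NQO 39 of 382 held 88.0%, and in BPK vehicle 73 of 729 held 81.6%. As many cells richest in Timp1 held 89.8%, 82.9%, 87.4% and 87.7% of its UMIs, in the same order. In the tumor, the sets richest in Mmp13 and in Mmp10 shared 15 of 25 cells. The set richest in Timp1 shared 0 of 25 cells with either of them and 7 of 25 with the set richest in Mmp3. The 25 cells richest in Mmp13 had 1698 CPM of Timp1 and 161 CPM of Timp3, against 4538 and 423 CPM in the other 223 tumor fibroblasts. They had 2529 CPM of Mmp3 and 745 CPM of Mmp14, against 988 and 456 CPM in the others.

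The 25 cells richest in Mmp13 had 11440 CPM of Col1a1, a chain of type I collagen, and 652 CPM of Krt14, against 8555 CPM of Col1a1 and 752 CPM of Krt14 in the other tumor fibroblasts. Their Dcn, the proteoglycan decorin, was 1425 CPM, against 3514 CPM in the others. The basal marker list, 7 of 8 genes with UMIs and Oxtr at 0, summed to 2474 CPM in fibroblasts of the tumor, against 147 and 179 CPM in BPK 4NQO, 335 CPM in PK 4NQO and 177 CPM in BPK vehicle. The part of epithelial RNA in the fibroblast values was not tested. Rankings were made on UMIs of a few cells of 1 library and are a description.

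**Figure D5:**
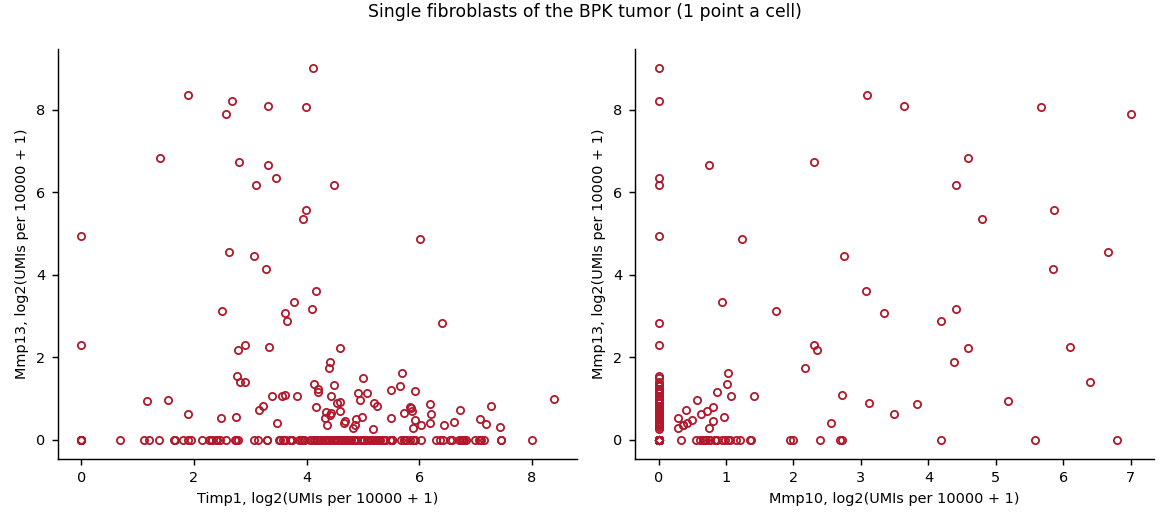
Each point is 1 of 248 fibroblasts of the BPK tumor, with Mmp13 on the y axis against Timp1 (left) and Mmp10 (right), each as log2 of UMIs per 10000 plus 1. Cells high in Mmp13 lie at middle or low Timp1 in the left panel and spread over the whole range of Mmp10 in the right panel.

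Endothelium had 4 called members, Mmp10, Mmp13, Mmp14 and Timp1. Mmp14 had 211 CPM in tumor endothelium, against 21.2 and 65.6 CPM in BPK 4NQO, 20.3 CPM in PK 4NQO and 17.0 CPM in BPK vehicle. It was higher in the tumor by 2.45 ± 0.72 on the log2 scale (adjusted p = 0.0235 by edgeR, 0.0918 by DESeq2). Without the first BPK 4NQO library that value was 1.87 and without the second 3.38. Timp1 had 130 CPM in tumor endothelium, against 8.55 and 10.9 CPM in BPK 4NQO, 10.2 CPM in PK 4NQO and 7.43 CPM in BPK vehicle (log2 fold change 3.87 ± 0.70, adjusted p = 1.02e-05 by edgeR). Timp3, the leading member of gland endothelium, had 254 CPM in the tumor, below every gland library, but its log2 fold change of -2.21 ± 1.04 did not pass (adjusted p = 0.272 by edgeR), though DESeq2 called it. The pericyte and smooth muscle list moved with it, summing in endothelium to 114 CPM in the tumor, with Cspg4 at 0, against 720 and 725 CPM in BPK 4NQO, 540 CPM in PK 4NQO and 942 CPM in BPK vehicle, with all 9 genes present, and its part in the difference was not tested. Without a filter on low counts no member was called in endothelium, at adjusted p up to 0.542.

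RNA freed from broken cells reaches all droplets, so levels in the remaining tumor classes were set beside Krt14, which these classes should lack. Krt14 stood at 5.22% to 6.53% of its level over all kept tumor cells in luminal, endothelial and macrophage cells, and Col1a1 at 2.61% to 4.23%. Endothelial Mmp10 and Mmp13 (10.9 and 17.1 CPM, at least 6.96-fold and 10.9-fold over 3 counts per BPK 4NQO library) were called by edgeR. They stood at 4.64% and 5.61% of their overall tumor level, and Krt14 in the same cells at 5.28%. The part of free RNA in the endothelial calls was not tested. Endothelial Mmp14 stood at 178% and endothelial Timp1 at 24.0%. The basal list in endothelium summed to 1082 CPM in the tumor, against 232 and 342 CPM in BPK 4NQO, 246 CPM in PK 4NQO and 259 CPM in BPK vehicle, with all 8 genes present in the tumor.

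Luminal hormone-sensing cells of the tumor (104 cells) had 49.4 CPM of Mmp10 and 66.4 CPM of Mmp13, against 0.387 and 6.12 CPM of Mmp10 and 0 and 1.36 CPM of Mmp13 in BPK 4NQO. Both were called by edgeR, with log2 fold changes of 4.31 ± 0.73 and 7.31 ± 0.87 (adjusted p = 3.1e-06 and 1.57e-13), and neither by DESeq2 (adjusted p = 1 for both). Without the first and the second BPK 4NQO library in turn, they were 3.28 and 6.95 for Mmp10, and 5.86 and 12.20 for Mmp13, the last set against a library with no count. They stood at 21.0% and 21.7% of the overall tumor level, above the 5.96% of Krt14 in the same cells. Timp1 was higher there by 3.30 ± 0.76 on the log2 scale, with 90.4 CPM in the tumor and 11.5 and 7.94 CPM in BPK 4NQO (adjusted p = 0.00303 by edgeR). The basal list summed to 1119 CPM in these tumor cells, against 50.2 and 93.0 CPM in BPK 4NQO. The fibroblast list, with all 8 genes present, summed to 787 CPM in the tumor, against 350 and 495 CPM in BPK 4NQO. The part of either list in the calls was not tested. Luminal alveolar cells numbered 31 in the tumor, and Timp1 was their called member, with 96.2 CPM in the tumor and 15.9 and 12.8 CPM in BPK 4NQO (log2 fold change 2.80 ± 0.64, adjusted p = 0.00441 by edgeR). The basal list in these cells, with Oxtr and Mylk at 0 in the tumor, summed to 895 CPM in the tumor and 114 and 147 CPM in BPK 4NQO, and its part was not tested.

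Timp1 stood at similar levels, 90.4 to 130 CPM, in tumor luminal, endothelial and macrophage cells, or 16.7% to 24.0% of its overall tumor level of 541 CPM. Krt14 stood there at 5.22% to 6.53% and Col1a1 at 2.61% to 4.23%, and the part of free RNA in these Timp1 levels was not tested. Called members made up 1 of 6 tested in luminal alveolar cells, 3 of 9 in luminal hormone-sensing cells and 4 of 8 in endothelium, where 0.679%, 1.24% and 4.21% of all genes were called.

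Macrophages of the tumor, which were 142 cells, had no member called by edgeR, where 0.334% of their 7183 genes were called. An unadjusted edgeR p under 0.05 was reached by 3 of 7 members tested and by 252 of the 7183 genes. Mmp13 missed the threshold narrowly with edgeR, while DESeq2 called it. Its level was 390 CPM in the tumor, against 13.1 and 25.3 CPM in BPK 4NQO, 44.2 CPM in PK 4NQO and 18.9 CPM in BPK vehicle, and its log2 fold change was 4.45 ± 1.19 (adjusted p = 0.0501 by edgeR). The 15 richest of those macrophages held 78.9% of its UMIs. Mmp13 stood at 128% of its overall tumor level in these cells and Krt14 at 6.53%. The part of free RNA in this Mmp13 level was not tested. Mmp9, which macrophages and neutrophils are known to secrete, had 59.4 CPM in tumor macrophages, 30.5 and 14.5 CPM in BPK 4NQO, 16.6 CPM in PK 4NQO and 50.4 CPM in BPK vehicle. The tumor value was above every gland library and closest to BPK vehicle, and the log2 fold change over BPK 4NQO was 1.56 ± 1.01 (adjusted p = 1 by edgeR). Neutrophils reached 30 cells in the tumor alone (47 cells), where Mmp9 had 69.3 CPM.

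Repeated 4NQO exposure was asked about by setting BPK 4NQO against BPK vehicle. No member was called in any of 7 classes, in 44 tests by edgeR or by DESeq2. Over all genes 0.368% of tests passed at an adjusted p under 0.05. An unadjusted edgeR p under 0.05 was reached in 7 of the member tests. These were 2 of 9 in fibroblasts, 3 of 8 in Krt5/Krt14 epithelium and 2 of 7 in luminal hormone-sensing cells. In the same order of classes, 335 of 10453, 426 of 11854 and 286 of 12633 genes reached it. The members were Mmp9 and Mmp10 in fibroblasts, Mmp3, Mmp9 and Mmp13 in the epithelium, and Mmp3 and Mmp10 in hormone-sensing cells. Mmp3 and Timp1 in fibroblasts did not reach it. Mmp3 in fibroblasts was 838 and 425 CPM in BPK 4NQO and 161 CPM in BPK vehicle, a log2 fold change of 1.84 ± 1.15 (adjusted p = 1 by edgeR). Their Timp1 was 1089 and 328 CPM in BPK 4NQO and 156 CPM in BPK vehicle, a log2 fold change of 2.08 ± 1.21 (adjusted p = 1 by edgeR). Both BPK 4NQO libraries lay above vehicle in either gene.

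Among the scarce enzymes, Mmp9 in fibroblasts was 8.52 and 26.7 CPM in BPK 4NQO and 2.75 CPM in BPK vehicle (log2 fold change 2.46 ± 1.00, adjusted p = 0.866 by edgeR). Mmp10 in the same cells was 2.13 and 13.8 CPM in BPK 4NQO and absent from BPK vehicle, at least 4.81-fold higher than 3 counts per library allow. Its UMIs came from 2 of 412 and 20 of 1078 BPK 4NQO fibroblasts. In luminal hormone-sensing cells Mmp10 was 0.387 and 6.12 CPM in BPK 4NQO and 0 CPM in BPK vehicle. That is at least 14.3-fold higher than 3 counts per library allow (adjusted p = 0.295 by edgeR). These UMIs came from 1 of 1680 and 2 of 781 BPK 4NQO cells, so the fold rests on very few cells. Mmp3 in those cells was 1.01 and 3.17 CPM in BPK 4NQO and 0.0758 CPM in BPK vehicle (adjusted p = 1 by edgeR). Mmp13 in Krt5/Krt14 epithelium was 0.998 and 6.44 CPM in BPK 4NQO and 0 CPM in BPK vehicle, at least 7.80-fold higher by the same floor (adjusted p = 0.554 by edgeR). It was found in 2 of 1186 and 7 of 899 BPK 4NQO cells. For each of these genes and classes the second BPK 4NQO library had the higher level. Mmp2, Mmp14, Timp2 and Timp3 in fibroblasts had log2 fold changes from 0.10 to 0.56 with standard errors of 1.07 to 1.26.

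The Brca1 allele was examined by setting BPK 4NQO against PK 4NQO. No member was called in 45 tests over 8 classes, by edgeR or by DESeq2. Over all genes 0.147% of tests passed at an adjusted p under 0.05. An unadjusted edgeR p under 0.05 was reached in 3 of the member tests. These were 2 of 9 in fibroblasts, where 249 of 10453 genes reached it, and 1 of 7 in luminal hormone-sensing cells, where 230 of 12633 did. They were Mmp10 and Mmp13 in fibroblasts and Mmp10 in luminal hormone-sensing cells, each higher in the second BPK 4NQO library than in the first. Mmp3 and Timp1 in fibroblasts did not reach it. Fibroblast Mmp3 was 838 and 425 CPM in BPK 4NQO and 207 CPM in PK 4NQO (log2 fold change 1.60 ± 1.13, adjusted p = 0.999 by edgeR). Fibroblast Timp1 was 1089 and 328 CPM in BPK 4NQO and 540 CPM in PK 4NQO, and the groups overlapped. Its log2 fold change of 0.41 ± 1.11 became -0.95 without the first BPK 4NQO library. Mmp13 in fibroblasts was 0 and 31.5 CPM in BPK 4NQO and 0 CPM in PK 4NQO, so its difference came from 1 library. Standard errors near 1 on the log2 scale mean that changes of the size of the error were not detectable at this number of libraries.

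Across 44 sums of a class in a library, Timp1 resembled Mmp3 most among 8688 genes (Pearson r = 0.845 on log2 CPM plus 1). Mmp13 resembled Mmp9 most (r = 0.795), with Mmp10 among its 3 closest genes (r = 0.734). Mmp10 was closest to Serpinb2, an inhibitor of plasminogen activators (r = 0.819), and to the growth factor Ereg (r = 0.802). Mmp2 was closest to Aebp1 (r = 0.914), Mmp14 to Ecm1 (r = 0.852), Timp2 to Ttyh2 (r = 0.788) and Timp3 to Pkd2 (r = 0.933). Sums of a library share its depth and free RNA, so these values describe likeness and carry no p.

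Other genes of the pathway were counted from 3 lists. Of 16 activators, binding partners and membrane regulators, 15 were tested in Krt5/Krt14 epithelium, and in the tumor 3 were higher, 3 lower and 9 not called (median log2 fold change 0.79, against -0.08 over all genes), where 5.97% of all genes were called higher and 9.53% lower. Sdc1, the surface proteoglycan syndecan-1, had 1140 CPM in the tumor and 131 and 149 CPM in BPK 4NQO. Cd44, a hyaluronan receptor that can dock Mmp9, also rose, with 541 CPM in the tumor and 119 and 204 CPM in BPK 4NQO. Reck, a membrane inhibitor of metalloproteinases, fell to 0.207 CPM in the tumor, against 8.98 and 10.99 CPM in BPK 4NQO (log2 fold change -5.04 ± 0.96, adjusted p = 7.93e-06 by edgeR). Lcn2, which binds Mmp9, and Thbs1, thrombospondin 1, were also lower.

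Plaur, the receptor of urokinase, rose in 4 tumor classes. Fibroblasts had 214 CPM in the tumor and 19.9 and 17.8 CPM in BPK 4NQO, and endothelium had 432 CPM in the tumor and 68.7 and 36.4 CPM in BPK 4NQO. Luminal alveolar and hormone-sensing cells were the others. Of 15 genes of the list tested in fibroblasts, 2 rose, Plaur and Spp1 (osteopontin), and none fell (median 0.81, against -0.11 over all genes), where 2.34% of all genes were called. Of 14 tested in endothelium, 4 rose and none fell (median 0.92, against -0.07 over all genes), where 4.21% of all genes were called.

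Of 18 other metalloproteinases and Timp4, 9 were tested in tumor epithelium, where Mmp1a and Mmp28 rose, Mmp17 fell and 6 were not called (median -1.58, against -0.08 over all genes), where 15.5% of all genes were called. Mmp1a, a collagenase, had 9.04 CPM in the tumor and 0 and 0.379 CPM in BPK 4NQO. It has a close copy, Mmp1b, so its counts are uncertain. In endothelium, Timp4 fell to 5.19 CPM in the tumor, against 405 and 170 CPM in BPK 4NQO (log2 fold change -5.68 ± 1.22, adjusted p = 0.00043 by edgeR). Of 13 Adam and Adamts proteinases 12 were tested in tumor epithelium, where Adam12 rose, Adamts2, Adamts4 and Adamts9 fell and 8 were not called (median -0.90, against -0.08 over all genes, of which 15.5% were called).

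Mmp12, the macrophage metalloelastase, was called for 4NQO in fibroblasts and in Krt5/Krt14 epithelium, on the strength of 1 library, where 0.316% and 0.962% of all genes were called. It was also called against PK 4NQO in the epithelium and in luminal hormone-sensing cells, where 0.312% and 0.222% were. Mmp19, called for 4NQO in the epithelium with 0.250 and 19.0 CPM in BPK 4NQO and 0.159 CPM in BPK vehicle, was the only other gene of the lists called in the glands. Epithelium had 0.250 and 72.8 CPM of Mmp12 in BPK 4NQO, 0.329 CPM in PK 4NQO and 0.318 CPM in BPK vehicle, and fibroblasts had 0 and 54.2 CPM in BPK 4NQO and 0 CPM in BPK vehicle. Macrophages had 740 and 1955 CPM in BPK 4NQO and 1297 CPM in BPK vehicle. All 9 macrophage markers had UMIs in epithelium of the second BPK 4NQO library, summing to 110 CPM. The sums were 16.7 CPM in the first BPK 4NQO library, where Csf1r and Adgre1 were at 0, and 9.54 CPM in BPK vehicle, where Fcgr1 and Ms4a7 were at 0. The part of macrophage RNA in these calls was not tested.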

How the data were processed

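Single-cell RNA was measured in 5 libraries of 10x 3' v2 chemistry, per the labels. The second BPK 4NQO library shares few barcodes with the others, so its preparation may differ from that label. The authors deposited raw UMI counts for every gene in every called cell. These were made with Cell Ranger 5.0.1, except PK 4NQO with 3.0.2, per the file headers, on mm10 per the submitters' processing notes. How cells were called, and on which annotation, was not given in the sources used here. Total UMIs ran from 27383717 to 64169843 per library. Barcodes under 300 genes or over 20% mitochondrial counts were left out, then the top 0.8% of scrublet scores per 1000 barcodes (2117 doublets, scanpy 1.11.5), which left 31434 of 34526.

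A cell took the class whose marker list scored highest (mean of log values scaled to 10000 UMIs, divided by the 90th percentile of positive cells), if at least 2 markers were detected and the next class scored at most 0.67 of it. This gate was set after seeing the data. Sums of raw counts by class and library were tested if no compared library had fewer than 30 cells. Tests used edgeR 4.0.16 (R 4.3.3, limma 3.58.1): filterByExpr, TMM, the quasi-likelihood F test, and calls at a Benjamini-Hochberg adjusted p under 0.05. The fits held 4 gland libraries for treatment and genotype and all 5 for the tumor. Standard errors are the log2 fold change divided by the root of F. Scripts were tested on simulated data. All 9 members are named, and other pathway genes where they passed the test or a result turned on them, except 1 gene that is counted in its list and not reported here. The members and lists were chosen with earlier results of these data known. Likeness is Pearson r of log2 CPM with a pseudocount of 1, over genes reaching 10 CPM. Promoters are RefSeq's. The 4NQO dose in the labels was not used, as its unit is in doubt. DESeq2 1.42.0, RLE factors, no count filter, doublets kept, a gate of 3 markers, the compared libraries alone and leaving out a replicate were the alternatives, and cells with the basal list higher were added after seeing the data.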

Additional observations from a re-analysis of the deposited data

How the results depend on the processing

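Members past the threshold for the tumor numbered 18, and 11 with DESeq2, 3 of them not called by edgeR. DESeq2 gave no adjusted p for endothelial Mmp10 and Mmp13. The cause of the other losses was not tested. RLE factors, doublets kept and the compared libraries alone gave 19, the stricter gate 18 and no count filter 17. Treatment and genotype stayed at 0 under all 6 of these alternatives. Levels of at least 10 CPM numbered 211, 216 with doublets kept and 206 with the stricter gate. Under the same 6 alternatives, not counting runs that left out a BPK 4NQO library, log2 fold changes turned sign in 6 uncalled tests. For 4NQO treatment these were Mmp14 in pericytes and smooth muscle under the stricter gate (0.13), macrophage Mmp13 with no count filter (0.01) and macrophage Timp3 with doublets kept (-0.06). For genotype they were epithelial Mmp14 (0.02) and T cell Timp2 (-0.07), both with doublets kept. For the tumor, fibroblast Mmp14 turned under RLE factors (0.05), DESeq2 (0.05) and doublets kept (0.01). Leaving out a library could turn the sign of uncalled tests too, as it did for fibroblast Timp1 for genotype without the first BPK 4NQO library. Macrophage Mmp13 was called in the tumor under RLE factors, DESeq2, no count filter and doublets kept. No paired analysis was possible because BPK 4NQO alone has 2 libraries and the other groups have 1. With 1 residual degree of freedom and 1 tumor library, the spread between tumors is unknown, and scarce members rest on few cells.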
